A study of Danio rerio with 4 samples.

Results

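Genes that copy the chromosomes and genes that part them are used by every dividing cell, and 36 of them were followed here through the cell types of the growing zebrafish ventricle. They were taken by name from the 36351 genes of the count files, and each of the 36 names was found on 1 row. The members were split by role into 12 replication genes, 19 mitotic genes and 5 chromatin, actin and microtubule genes that many non-dividing cells also express. The samples were 4 single-cell RNA libraries of wild-type (WT) ventricles, each from 1 pool of animals. The initiation library held 25 ventricles of fish 10 mm long at 1.5 months, and the establishment library held 18 ventricles at 14 mm and 2 months. The expansion library held 12 ventricles at 18 mm and 2.5 months, and the maturation library held 5 ventricles at 28 mm and 8 months. The stages follow the growth of the coronary vessels over the ventricle, and the comparisons ask in which cells, and at which of these stages, the genes of cell division were detected. With 1 library per stage, stage and library cannot be told apart. No test between stages was possible, and cells of 1 pool are not replicates. Intervals are at 95% and speak for counting error alone.

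Before a cell copies its DNA, the helicase subunits Mcm2 to Mcm7 are loaded on the origins. Pcna then holds the polymerases on the template, Rpa2 coats single-stranded DNA, Chaf1a places histones behind the fork, and Dut, Rrm1 and Rrm2 keep the nucleotide pool in order. At mitosis the cyclins with Cdk1, the Aurora kinases and Plk1 drive chromosome condensation and spindle assembly, and Cdc20 and Ube2c then mark mitotic proteins for destruction. In fish, red blood cells keep their nuclei, and young erythroid cells can divide while they already make haemoglobin. Hearts of growing zebrafish also enlarge by division of cardiomyocytes (CMs), endothelial cells (ECs) and epicardial cells.

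Cells were barcodes with at least 2500 unique molecular identifiers (UMIs, each a tag of 1 captured RNA molecule) and at least 600 genes, which left 6932, 6663, 12296 and 7612 cells in stage order. The library totals ranged from 115624753 to 161798583 UMIs, of which 82.2% lay in cells at initiation and 31.2% at maturation. The median cell held 13251.5, 12517, 5215 and 5524 UMIs in stage order. Libraries shared 119 barcode sequences among the 33503 cells. Cells were put in classes by their summed marker UMIs, and a class is written with "-like" because the gates rest on markers alone. The 5704 CM-like, 13221 EC-like, 2211 mesenchymal-like, 307 macrophage-like and 5543 red blood cell-like (RBC-like) cells had every measured marker higher inside than outside the class in all 4 libraries. This was so for 9 of 10 epicardial markers and 11 of 12 mural markers, and for 5 of 6 thrombocyte markers in the 3 libraries with at least 10 such cells. In the lymphocyte-like class it held for 7 of 11 markers, and cd79a, cd79b, cd4-1 and cd8a failed. The gates rest on the sums of these same markers, so higher levels inside a class were largely fixed by the gate. In stage order 3792, 1581, 150 and 20 cells were RBC-like. Mitochondrial UMIs took a median of 3.04%, 2.65%, 9.65% and 30.5% of an EC-like cell in stage order, so the later libraries differ from the earlier ones in RNA content as well as in stage.

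At initiation and establishment most UMIs of the mitotic genes lay in red blood cells. At initiation the RBC-like class was 54.7% of the cells and held 61.3% of all UMIs in cells, and it held 84.5% of the UMIs of the 19 mitotic genes. The same class held 39.5% of the UMIs of the 12 replication genes. At establishment RBC-like cells were 23.7% of the cells, with 59.4% of the mitotic and 7.96% of the replication UMIs. At expansion 54.6% of the mitotic UMIs and 60.1% of the replication UMIs lay in EC-like cells, a class that made up 52.0% of the cells. At maturation EC-like cells held 58.4% and 49.4% of these UMIs and were 51.8% of the cells.

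Levels are given as counts per 1000000 (CPM), the UMIs of a gene or set per 1000000 UMIs of the class. The mitotic set stood at 275 CPM in RBC-like cells at initiation (271 to 279.5), then at 136 and 131 CPM, and at 5.49 CPM, a single UMI, at maturation. In EC-like cells it stood at 41.0, 31.2, 27.1 and 29.9 CPM in the same order. In CM-like cells it was 22.2, 15.5, 12.0 and 7.41 CPM. RBC-like cells were thus the highest of these 3 classes in the first 3 libraries. Their ratio over EC-like cells was 6.71 at initiation (6.15 to 7.34), 4.37 at establishment (3.99 to 4.79) and 4.84 at expansion (4.17 to 5.59). The expansion value rests on few cells, as 5 of the 150 RBC-like cells held 87% of the mitotic UMIs of the class. Without them 17.8 CPM was left, below the 26.0 CPM of EC-like cells without their own top 5. Globin transcripts fill most of a red blood cell, and with globin and mitochondrial UMIs out of the denominator the ratio was 24.0 at initiation and 22.3 at establishment. Without the 5% of cells with the most UMIs in each class it was 4.37 and 1.95, and with at least 5000 UMIs and 1000 genes per cell it was 10.3 and 18.1. Free RNA, read from barcodes with 10 to 100 UMIs, carried the mitotic set at 62.0 CPM at initiation, above the level in EC-like cells, and at 23.3, 9.65 and 9.98 CPM later. Globin made up 44.3% of that free RNA at initiation and a median of 0.250% of an EC-like cell. Subtracting free RNA, scaled by the CM or red blood cell markers found in other classes, left the ratio at 6.79.

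Per UMI with globin included, the replication set had another order. In EC-like cells it stood at 191, 198, 103 and 55.9 CPM in stage order. RBC-like cells had 74.8, 29.0, 44.2 and 5.49 CPM, below EC-like cells in each library. CM-like cells had 94.2, 52.3, 36.8 and 30.3 CPM, also below EC-like cells in all 4. The ratio of RBC-like to EC-like cells was 0.392 at initiation (0.373 to 0.412) and 0.147 at establishment (0.135 to 0.159). Globin fills the denominator of these levels. It took a median of 72.45% and 81.92% of an RBC-like cell in these libraries, against 0.250% and 0.269% of an EC-like cell. Leaving out globin and mitochondrial UMIs changes the denominator of a class alone, so it scales this ratio by the same factor as the mitotic ratio above. On that scale RBC-like cells stood above EC-like cells at initiation and below them at establishment. The order of the replication set thus depended on globin at initiation, and the later libraries were not compared on that scale.

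**Figure D1:**
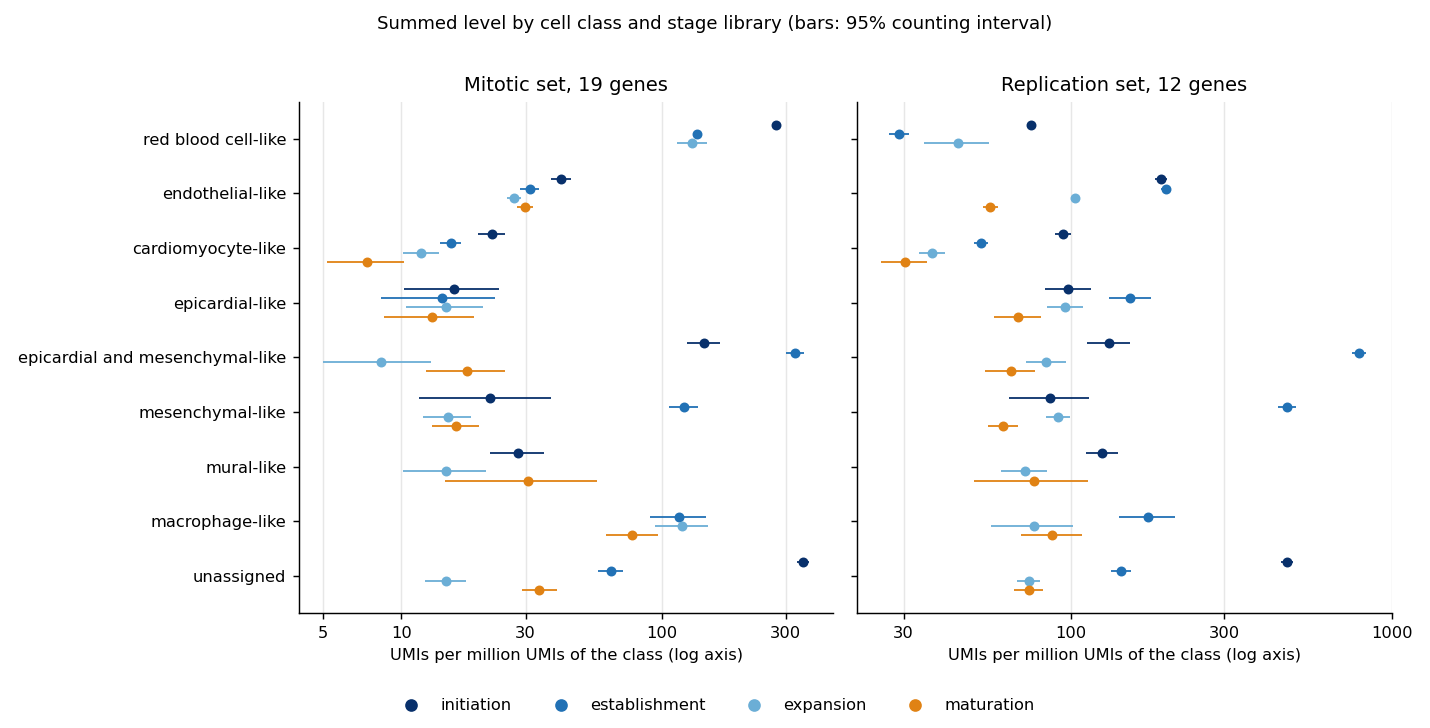
Summed level of the 19 mitotic genes and of the 12 replication genes in each cell class and library, in UMIs per 1000000 UMIs of the class on a log axis, with points for the 4 stages and bars for the 95% counting interval. Sums of at least 50 cells are drawn, and globin is counted among the UMIs of a class. In the mitotic panel RBC-like cells lie right of EC-like and CM-like cells, at 275 CPM at initiation, and in the replication panel they lie left of EC-like cells, with the highest point, 789 CPM, in the epicardial and mesenchymal-like class at establishment.

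A level does not tell whether the genes were switched on together, so cells were also counted. Each cell was thinned to 2500 UMIs, and it was called mitosis-positive with at least 3 of the 19 mitotic genes and replication-positive with at least 3 of the 12 replication genes. Of 33503 cells 267 were mitosis-positive, and 217 of them (81.3%) were RBC-like. The others were 20 cells in no class, 11 EC-like, 5 epicardial and mesenchymal-like, 4 macrophage-like, 3 thrombocyte-like, 3 in more than 1 class, 2 CM-like, 1 mesenchymal-like and 1 lymphocyte-like cell. No epicardial-like, mural-like or neutrophil-like cell was positive.

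Mitosis-positive cells were 173 of 3792 RBC-like cells at initiation (4.56%, exact binomial interval 3.92 to 5.28%). At establishment they were 41 of 1581 (2.59%, 1.87 to 3.50%), at expansion 3 of 150 (2.00%), and at maturation 0 of 20, which allows a share of up to 15.0%. In EC-like cells the share was 0.368%, 0.111%, 0.0469% and 0.0508% in stage order. In CM-like cells it was 0.0983%, 0.0490%, 0% and 0%. High shares were not limited to RBC-like cells. At initiation 17 of 374 unassigned cells were positive (4.55%, 2.67 to 7.18%). At establishment 4 of 101 epicardial and mesenchymal-like cells were positive (3.96%, 1.09 to 9.83%). The share that free RNA alone would give at this depth was 0.0423% at initiation, so RBC-like cells stood far above it and CM-like cells did not differ from it beyond counting error. Without thinning the shares at initiation were 5.25% for RBC-like and 1.66% for EC-like cells, whose median depths were 14975 and 8564 UMIs. Leaving out the 5% of RBC-like cells with the most UMIs gave 3.25% at initiation and 1.2% at establishment. The mitosis-positive RBC-like cells held a median of 22822 UMIs and 2160 genes, against 15173.5 UMIs and 950.5 genes in the rest of the class, and 64.2% against 75.0% globin. The part of cell doublets in these shares was not tested, and no doublet caller was run.

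Among the named classes EC-like cells held the most replication-positive cells, 88, followed by RBC-like cells with 57. Replication-positive cells were 24 of 1087 EC-like cells at initiation (2.21%, 1.42 to 3.27%), 39 of 1800 at establishment (2.17%), 19 of 6394 at expansion (0.297%) and 6 of 3940 at maturation (0.152%, 0.0559 to 0.331%). In CM-like cells the share was 1.38%, 14 of 1017 cells, at initiation and 0.147%, 0% and 0.119% later. RBC-like cells had 55 such cells at initiation (1.45%), 2 at establishment (0.127%) and none in the later libraries. In EC-like cells both early libraries, and in CM-like cells initiation alone, were thus above the late ones by more than counting error. These shares moved with the thinning, and without it 11.6% of EC-like and 7.38% of CM-like cells at initiation were replication-positive. The UMIs kept by thinning include globin, so fewer were left for other genes in RBC-like cells. Without thinning 4.48%, 2.21%, 2.67% and 0% of RBC-like cells were replication-positive in stage order. In EC-like cells these shares were 11.6%, 9.0%, 1.47% and 0.533%.

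After thinning, cells in both states were found mainly among red blood cells at initiation. Of 57 replication-positive RBC-like cells 46 (80.7%) were also mitosis-positive, which is 21.2% of the 217 mitosis-positive cells. All 46 lay in the initiation library, and at establishment none of the 41 mitosis-positive and none of the 2 replication-positive RBC-like cells was both. Without thinning 51 RBC-like cells at establishment were mitosis-positive and 35 replication-positive, and their overlap was not counted. Globin takes up UMIs kept by thinning, so these overlaps are not comparable between RBC-like and other cells. Of 88 replication-positive EC-like cells 6 (6.82%) were also mitosis-positive, which is 54.5% of 11. In CM-like cells 18 were replication-positive, 2 were mitosis-positive and none was both.

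**Figure D2:**
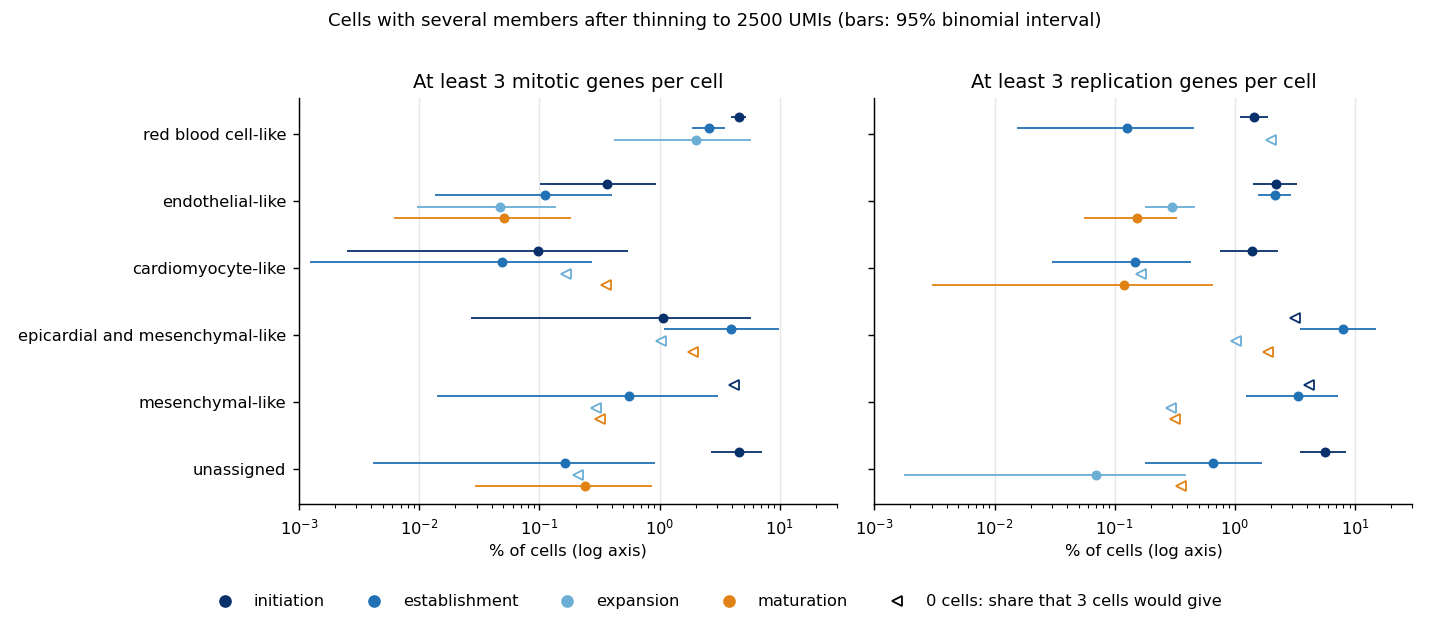
Share of cells, in percent on a log axis, with at least 3 mitotic genes and with at least 3 replication genes after thinning to 2500 UMIs, by class and library, with 95% exact binomial intervals. Open triangles mark the share that 3 cells would give where none was found, and classes of under 50 cells are not drawn. Mitosis-positive cells reach 4.56% of RBC-like cells at initiation, and replication-positive cells reach 2.21% of EC-like cells at initiation.

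Each of the 7 mitotic kinases and cyclins had more of its UMIs in RBC-like cells than in any other class. Among them the 3 with the most UMIs were aurkb, the kinase of the chromosomal passenger complex, plk1, a kinase of spindle assembly, and cdk1, the kinase that starts mitosis. Aurkb stood at 12.3, 18.1, 11.8 and 5.49 CPM in RBC-like cells in stage order and at 1.11, 0.565, 0.148 and 0.0781 CPM in EC-like cells. Plk1 stood at 12.8, 6.82, 3.53 and 0 CPM in RBC-like cells and between 0.467 and 0.874 CPM in EC-like cells. For cdk1 the RBC-like levels were 12.1, 9.16, 6.48 and 0 CPM, against 0.0391 to 0.238 CPM in EC-like cells. The RBC-like class held 83.8% of all aurkb UMIs in cells, 82.1% of cdk1 and 78.5% of plk1. Over the 4 libraries together the class held 27.5% of the UMIs of all genes in cells. Of the other 4 genes, ccna2, ccnb1 and bub1 had 73.5 to 75.6% of their UMIs there and aurka 45.3%.

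The genes of mitotic exit were cdc20, the activator of the anaphase-promoting complex, and ube2c, its ubiquitin-conjugating enzyme. Cdc20 stood at 6.93, 6.03, 0.589 and 0 CPM in RBC-like cells and between 0.148 and 0.452 CPM in EC-like cells. Ube2c stood at 15.9, 11.7, 11.2 and 0 CPM in RBC-like cells and at 9.53, 3.50, 6.0 and 3.83 CPM in EC-like cells. The class held 83.1% of cdc20 UMIs and 48.6% of ube2c UMIs, so ube2c was the less selective of the pair.

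Among the spindle and cytokinesis genes the 3 with the most UMIs were diaph3, a formin that builds actin filaments, stmn1a, a protein that destabilises microtubules, and tpx2, an activator of Aurora A. Tpx2 stood at 23.5, 12.7, 7.07 and 0 CPM in RBC-like cells and at 1.19, 0.678, 0.344 and 0.195 CPM in EC-like cells. Diaph3 stood at 18.7, 5.20, 7.66 and 0 CPM in RBC-like cells and at 22.6, 3.33, 6.05 and 3.44 CPM in EC-like cells. Per UMI with globin included, tpx2 was thus above EC-like cells in the first 3 libraries and diaph3 was not at initiation. Other classes also reached high tpx2 levels, 26.0 CPM in unassigned cells at initiation and 16.6 CPM in the epicardial and mesenchymal-like class at establishment. The spindle motor kif11, the microtubule binder nusap1 and the passenger protein birc5a had 88.9%, 83.8% and 80.6% of their UMIs in RBC-like cells. Kif23, the kinesin of the central spindle, had 19.4% there and 64.6% in EC-like cells.

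The chromosome genes fell into 2 kinds. The 3 with the most UMIs were hmgn2, a nucleosome-binding protein, and hmgb2a and hmgb2b, 2 DNA-bending proteins. Of their UMIs 13.4 to 31.5% lay in RBC-like cells, against 27.5% of the UMIs of all genes, globin included. Hmgb2a stood at 151, 239, 183 and 148 CPM in RBC-like cells, at 101, 188, 113 and 149 CPM in EC-like cells and at 150, 182, 136 and 153 CPM in CM-like cells. Hmgb2b stood at 21.8, 15.2, 12.4 and 0 CPM in RBC-like cells and at 42.0, 85.3, 39.6 and 40.6 CPM in EC-like cells. Per UMI with globin included, hmgb2a was highest in RBC-like cells among these 3 classes at establishment and expansion but not at maturation. On that scale hmgb2b was lower in RBC-like than in EC-like cells in all 4 libraries. Levels without globin were not computed for single genes, but the denominator of a class is the same for all of them. Scaled as the mitotic ratio was without globin and mitochondrial UMIs, hmgb2b was above EC-like cells at initiation. Whether the order of these genes holds in the other libraries on that scale was not tested. The condensin subunits smc2, smc4 and ncapg, topoisomerase top2a and mki67, the coat of mitotic chromosomes, had 57.4 to 80.5% of their UMIs in RBC-like cells. Mki67 and top2a are given in full after their values were seen. Mki67 stood at 57.5, 12.0, 24.2 and 0 CPM in RBC-like cells and at 3.97, 1.58, 1.21 and 0.977 CPM in EC-like cells. Top2a stood at 18.4, 5.35, 5.89 and 0 CPM in RBC-like cells and between 0.156 and 2.94 CPM in EC-like cells.

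The Mcm genes had smaller shares of their UMIs in red blood cells than the 27.5% that this class held for all genes, globin included. Globin took a median of 72.45% of an RBC-like cell at initiation and 81.92% at establishment. The share of the class in UMIs other than globin would be lower and was not computed. A share under 27.5% therefore does not show that a gene was low in the other RNA of these cells. Mcm6 had 2.27% of its UMIs in RBC-like cells, mcm3 6.21%, mcm4 6.57%, mcm5 9.31%, mcm2 21.4% and mcm7 21.8%. Mcm6 stood at 0.652, 0.528, 1.77 and 0 CPM in RBC-like cells, and mcm7 at 5.47, 2.98, 2.95 and 0 CPM. Mcm2 stood at 3.34, 2.68, 2.95 and 0 CPM. In the RefSeq annotation mcm2 overlaps 9 other genes, mcm7 overlaps 3, mcm3 and mcm6 overlap 1 each, and mcm4 and mcm5 overlap none. Reads of overlapping genes may be split between them, which may make the level of mcm2 less certain. The counts were made with another annotation, and an effect on these levels was not tested. The other replication genes lay on both sides of that 27.5%, with 9.60% of pcna, 16.8% of dut, 25.5% of rpa2 and 33.5% of chaf1a UMIs in RBC-like cells. For rrm1 and rrm2, the subunits of ribonucleotide reductase, the share was 50.4% and 66.6%.

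The members were then compared within the class. The 217 mitosis-positive RBC-like cells were set against the 5124 RBC-like cells in which none of the 19 mitotic genes was found after thinning. For a mitotic gene the cells were chosen by the other 18 genes, so these values describe genes found together and support nothing on their own. Mki67 stood at 714 CPM in positive and 1.46 CPM in negative cells, and tpx2 at 334 against 0.343 CPM. Aurkb stood at 195 against 2.71 CPM. The replication genes were not used to choose the cells, but they come from the same cells and depth. Pcna stood at 177 against 3.61 CPM, a ratio of 48.9 (42.7 to 56.1). Chaf1a stood at 135 against 0.967 CPM and rrm1 at 123 against 1.88 CPM. All 6 Mcm genes were higher in the positive cells, and mcm2 to mcm6 reached levels under 10 CPM. Mcm3 stood at 2.64 against 0.127 CPM, a ratio of 20.7 (8.39 to 52.8), and mcm6 at 3.45 against 0.394 CPM, a ratio of 8.73 (4.53 to 16.3). Mcm4 stood at 4.05 against 0.674 CPM, a ratio of 6.01 (3.40 to 10.2), and mcm5 at 2.43 against 0.534 CPM, a ratio of 4.55 (2.18 to 8.81). Mcm2 had the smallest ratio of the 6, 3.48 (2.46 to 4.82), at 9.12 against 2.62 CPM. Mcm7 had the highest level and ratio, at 48.2 against 1.63 CPM, a ratio of 29.6 (23.8 to 37.0). In the 11 mitosis-positive EC-like cells, which hold few UMIs, mcm2 stood at 20.2 CPM, mcm3 at 26.9 CPM, mcm4, mcm5 and mcm6 at 40.3 CPM each and mcm7 at 33.6 CPM. Their ratios over the negative EC-like cells ran from 4.67 for mcm6 (1.71 to 10.2) to 21.9 for mcm3 (5.86 to 57.6), on 3 to 6 UMIs a gene. Pcna stood there at 766 CPM, a ratio of 11.5 (9.46 to 13.8). Globin took a median of 64.2% of the positive RBC-like cells and 0.107% of the positive EC-like cells. Levels per UMI are therefore not comparable between these classes.

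**Figure D3:**
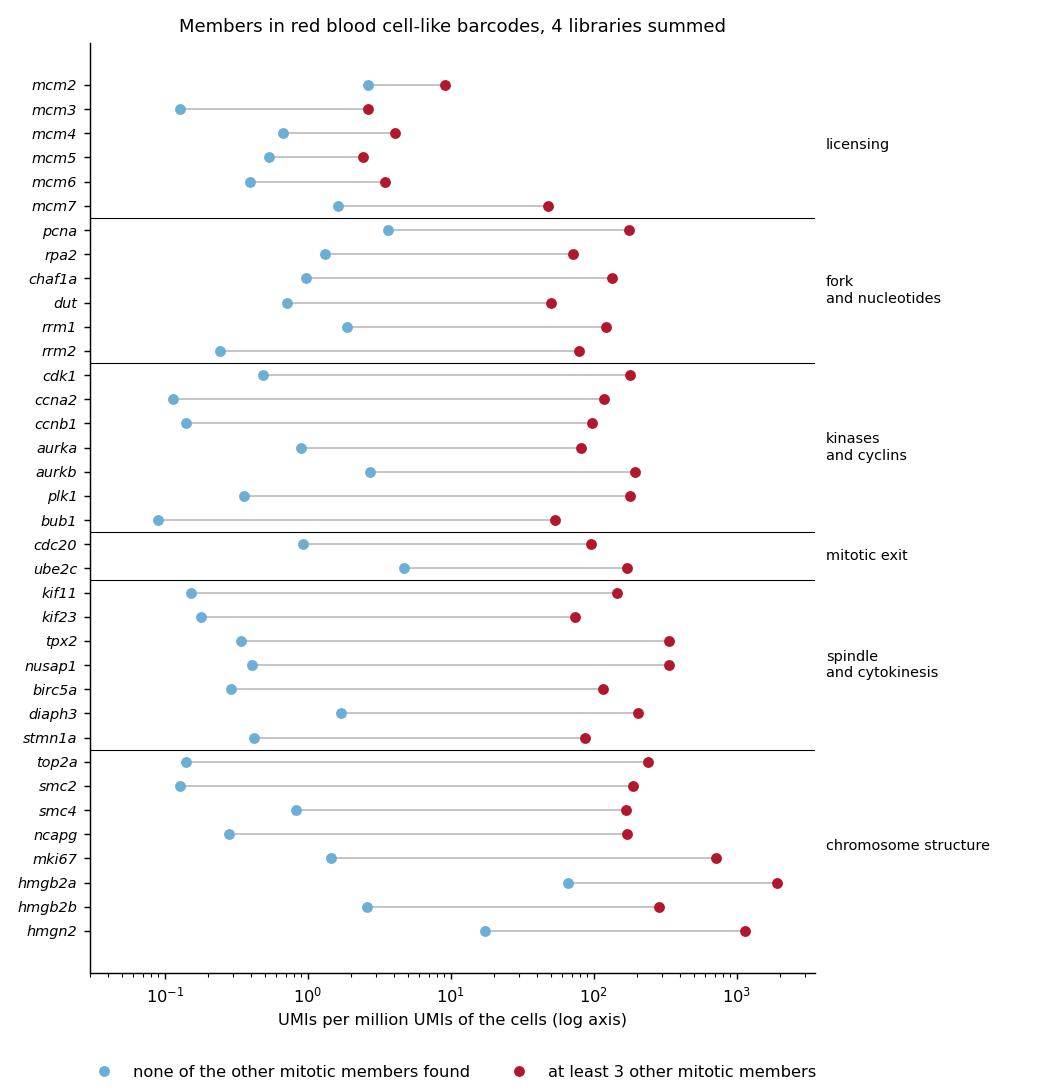
Level of each of the 36 genes in mitosis-positive and mitosis-negative RBC-like cells, in UMIs per 1000000 UMIs on a log axis and grouped by role. Mitotic genes were used to choose the cells, each by the other 18, and mcm2 to mcm6 remain at or below 9.12 CPM in the positive cells while mcm7 reaches 48.2 CPM.

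Read against all genes, 587 of the 10911 genes with at least 50 UMIs were at least 4-fold higher in the mitosis-positive RBC-like cells, with 5 CPM added to both sides, which is 5.38%. Of the 34 members that passed this minimum, 31 were at least 4-fold higher, and the minimum removed mcm3 and mcm6, which were low in both groups. By role these were 7 of 10 replication genes, 5 of 5 broad genes and all 19 mitotic genes. The cells were chosen here by all 19 mitotic genes, so the result for those 19 was fixed in advance. Only the replication and broad genes, which were not part of that choice, can be set beside the 5.38% of all genes. The median ratio was 10.9 for the replication genes and 1.21 for all genes tested. The 3 replication genes under 4-fold were mcm2, mcm4 and mcm5, and for mcm4 and mcm5 this rests on the added 5 CPM, as their plain ratios were 6.01 and 4.55. Hmgb2a stood at 1911 against 66.3 CPM and hmgn2 at 1141 against 17.4 CPM. Both were thus higher in the mitosis-positive than in the negative cells.

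Other genes of the cycle gave the same picture in part. Of 36 further mitosis genes tested 35 were at least 4-fold higher, with a median ratio of 15.1. The 3 with the most UMIs were cenpf, a kinetochore protein, at 513 against 0.598 CPM, tacc3, a spindle protein, at 186 against 18.5 CPM, and cdc25b, a phosphatase that activates Cdk1, at 277 against 12.4 CPM. Of 23 further replication genes 14 were at least 4-fold higher, and tk1, thymidine kinase, stood at 178 against 0.382 CPM. Slbp, which binds histone mRNA, stood at 97.3 against 6.66 CPM. Rrm2b, the p53-linked reductase subunit, went the other way at 3.45 against 10.6 CPM. Of 8 genes of G1 and S entry 4 were higher. The D cyclins parted, with ccnd1 at 117 against 22.7 CPM and ccnd2a at 7.90 against 50.1 CPM. Of 17 brakes of the cycle 1 was higher, wee1, the kinase that holds Cdk1 back, at 49.0 against 1.18 CPM, and 1 was lower, the pocket protein gene rbl2, at 0.608 against 19.1 CPM. The brakes with the most UMIs, ccng1 at 172 against 168 CPM, btg2 at 169 against 124 CPM and cdkn1bb at 56.1 against 120 CPM, stayed under 4-fold.

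Globin content gives a rough scale of how far an erythroid cell has filled with haemoglobin. For this, RBC-like and unassigned cells with at least 3 erythroid genes other than globin were ordered by the share of their UMIs in globin. The 2500 UMIs kept per cell include globin, so fewer UMIs are left for other genes where globin is high. At initiation 7 of 22 cells with 5 to 20% globin were mitosis-positive (31.8%, 13.9 to 54.9%), 13 of 64 with 20 to 40% (20.3%, 11.3 to 32.2%) and 54 of 245 with 40 to 60% (22.0%, 17 to 27.8%). With 60 to 100% globin 109 of 3502 cells were positive (3.11%, 2.56 to 3.74%). The share was thus lower in the cells fullest of globin, although by number they held most of the mitosis-positive cells. The bins also differed in content. Cells with 5 to 20% globin held a median of 26839 UMIs and 4297 genes, and those with 60 to 100% held 14955 UMIs and 1025 genes. The part of cell doublets in the bins was not tested. The replication-positive share was 27.3%, 15.6%, 9.80% and 0.685% over the same 4 bins. The mitotic set stood at 887, 1026, 1263 and 196 CPM and the replication set at 991, 528, 422 and 44.8 CPM. Per UMI with globin included, the replication level was thus lower in each bin with more globin and the mitotic level was not. Globin lowers such a level by filling the denominator. Levels without globin were not computed for the bins, so whether this contrast holds for the other RNA was not tested. The lowest bin, 0 to 5% globin, held only 15 cells, of which 2 were mitosis-positive and 3 replication-positive. At establishment 39 of 1505 cells with 60 to 100% globin were mitosis-positive (2.59%), and the lower bins, of 7 to 54 cells, held 2 mitosis-positive cells together.

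**Figure D4:**
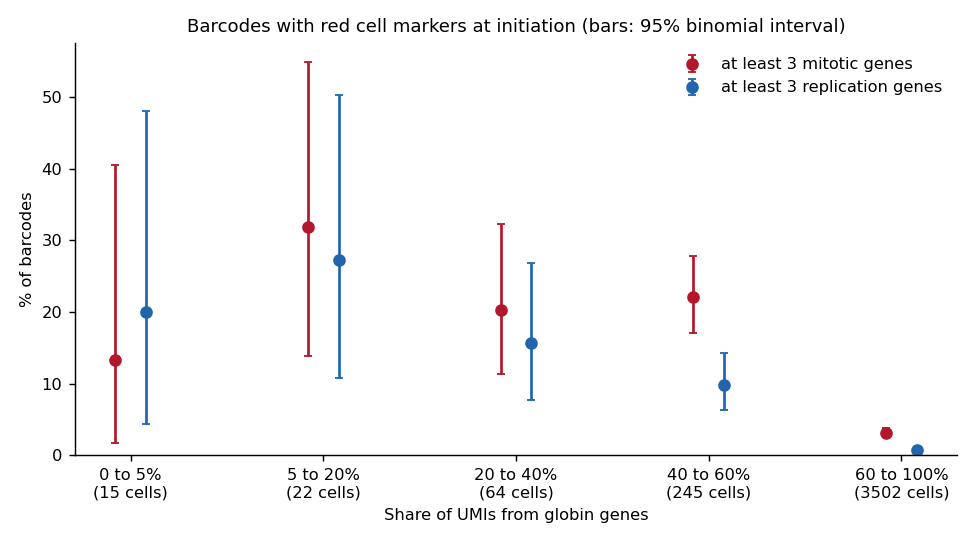
Share of mitosis-positive and of replication-positive cells at initiation, in percent, by the share of a cell's UMIs in globin, with 95% exact binomial intervals. The mitosis-positive share is 22.0% at 40 to 60% globin and 3.11% at 60 to 100%, and the replication-positive share is 9.80% and 0.685%. The 2 bins with the least globin hold 15 and 22 cells.

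In ECs the replication genes were higher in the early libraries. The summed level of the set in EC-like cells was 3.41 times higher at initiation than at maturation (3.20 to 3.65), and initiation did not differ from establishment beyond counting error (0.965 times, 0.916 to 1.02). Pcna, the clamp of the polymerases and the member with the most UMIs in this role, stood at 94.3, 115, 67.2 and 27.5 CPM in stage order. Chaf1a stood at 23.8, 9.49, 3.66 and 1.76 CPM, and dut, the dUTPase, at 13.5, 7.06, 6.27 and 7.27 CPM. Pcna was highest at establishment and chaf1a at initiation. Chaf1a was 13.5 times higher at initiation than at maturation (9.85 to 18.9). The other fork and nucleotide genes, rpa2, rrm1 and rrm2, lay between 0.295 and 8.19 CPM.

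The licensing genes together were 46.7, 52.7, 20.1 and 14.9 CPM in EC-like cells, a fall of 3.15 times from initiation to maturation (2.76 to 3.59). Mcm6 stood at 8.34, 13.5, 9.17 and 5.94 CPM, mcm7 at 9.93, 13.5, 3.54 and 1.88 CPM, and mcm2 at 11.3, 6.38, 2.48 and 2.27 CPM. Mcm7 and mcm2 were thus at their lowest at maturation, and both early libraries were above both late ones. Mcm6, which sits in the same ring of subunits, spanned a smaller range. The ratio of the replication set between initiation and maturation was 2.56 with mitochondrial and globin UMIs out of the denominator and 3.13 without cells over 40% mitochondrial UMIs.

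The broad genes of ECs moved in their own ways. Hmgn2 stood at 249, 476, 130 and 125 CPM, so that establishment was 3.65 times above expansion (3.53 to 3.78) and expansion and maturation were alike (1.04 times, 0.999 to 1.09). Stmn1a stood at 16.9, 7.80, 2.11 and 1.80 CPM, 9.42 times higher at initiation than at maturation (6.82 to 13.2). Diaph3 was high in the initiation library alone, 6.79 times above establishment (5.12 to 9.15). Hmgb2a went the other way, with initiation at 0.677 of maturation (0.635 to 0.722).

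Over all genes, 10.6% of the 14492 tested in EC-like cells were at least 2-fold higher at initiation than at maturation with 5 CPM added, and 5.1% were at least 2-fold lower. Of the 22 members tested 7 were higher, namely mcm2, mcm4, mcm7, pcna, chaf1a, diaph3 and stmn1a, and 1, kif23, was lower. The median log2 ratio was 0.66 for these members and -0.03 for all genes. With 1 CPM added 13 of the 22 members were higher, and 15.9% of all genes tested were. Among the genes outside the members, 0 of 16 of replication, 1 of 9 of mitosis, 0 of 9 of G1 and S entry and 3 of 15 brakes were at least 2-fold higher. Ccnd2a, the G1 cyclin gene with the most UMIs, stood at 256 CPM at initiation and 579.5 CPM at maturation in EC-like cells.

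CMs also had more of the replication genes early. Their replication set was 3.11 times higher at initiation than at maturation (2.62 to 3.72), and the licensing genes stood at 43.1, 21.4, 11.4 and 8.65 CPM, 4.98 times higher at initiation (3.63 to 7.0). Pcna stood at 27.7, 16.9, 16.3 and 9.68 CPM in CM-like cells. The level of mcm6 was 13.6, 13.6, 8.38 and 2.47 CPM, and mcm7 stood at 8.03, 2.19, 0.465 and 1.85 CPM. Mcm2 stood at 6.44, 2.29, 0.776 and 0.824 CPM, so mcm6 had the same level at initiation and establishment while mcm7 and mcm2 were already lower. Mcm6 was at or above its level in EC-like cells at initiation, where it was 8.34 CPM, while pcna was 3.41 times higher in EC-like than in CM-like cells (3.01 to 3.86). Chaf1a stood at 5.02, 1.23, 0.388 and 2.26 CPM and dut at 5.77, 3.55, 2.25 and 4.53 CPM.

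The higher early levels in CMs have to be read against those of all genes. In CM-like cells 29.4% of 9391 genes were at least 2-fold higher at initiation than at maturation, and 2.58% were at least 2-fold lower. Of the 16 members tested 4 were higher, mcm4, mcm6, pcna and aurka, and none was lower, a share near that of all genes. The median log2 ratio was 0.74 for the members and 0.57 for all genes. Of 15 brakes tested 8 were at least 2-fold higher at initiation. The replication set was 2.02 times higher in EC-like than in CM-like cells at initiation (1.89 to 2.17), 3.78 times at establishment, 2.80 times at expansion and 1.85 times at maturation.

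A pair of mitotic genes, kif23 in ECs and aurka in CMs, had stage patterns of their own, and both were chosen after their values were seen. Kif23, a motor of cytokinesis, stood at 5.32, 17.6, 13.5 and 15.7 CPM in EC-like cells in stage order, at 0.167 to 0.618 CPM in CM-like cells and at 5.49, 2.79, 2.95 and 0 CPM in RBC-like cells. It was the lowest at initiation, and maturation was 2.94 times higher (2.27 to 3.87). Of the EC-like cells with a kif23 UMI, 74.1%, 87.5%, 89.9% and 90.4% held none of the other 18 mitotic genes, over 54, 263, 493 and 344 cells. By contrast 7.31% of the RBC-like cells with an mki67 UMI at initiation and 6.0% at establishment held no other mitotic gene. RBC-like cells with kif23 were also rarely alone in it, 4.61% at initiation. Within ECs kif23 was alone more often than ube2c or pcna from establishment on, but not more often than ube2c at initiation. Of EC-like cells with ube2c 80%, 69.8%, 86.1% and 80.2% held no other mitotic gene in stage order. Of those with pcna 73.2%, 73.4%, 83.1% and 77.9% held none. The differences were not tested. Of all EC-like cells 78.8 to 86.2% had no mitotic UMI, a share that counts kif23 itself and so is not a matched base.

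Aurka, the kinase of the spindle poles, stood at 8.78, 2.97, 3.96 and 1.03 CPM in CM-like cells and at 0.794, 0.734, 0.910 and 3.09 CPM in EC-like cells. It was 8.53 times higher at initiation than at maturation in CM-like cells (3.54 to 26.8, on 105 and 5 UMIs), and in EC-like cells the ratio was 0.257 (0.119 to 0.499). Of the 83, 77, 45 and 5 CM-like cells with an aurka UMI, 85.5%, 85.7%, 91.1% and 100% held no other mitotic gene. Of those with mcm6, 71.4 to 85.9% held none, and 81.4 to 96.8% of all CM-like cells had no mitotic UMI. Neither kif23 nor aurka overlaps another gene in the RefSeq annotation.

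These genes weigh on the mitotic set outside the blood. Without kif23, aurka and ube2c the set stood at 25.4, 9.32, 6.74 and 7.27 CPM in EC-like cells and at 10.2, 9.26, 5.97 and 3.71 CPM in CM-like cells. EC-like cells were then 2.48 times above CM-like cells at initiation, 1.01 times at establishment (0.824 to 1.23) and 1.13 times at expansion (0.873 to 1.47), while with the 3 genes they had been 1.84, 2.01 and 2.27 times above. At maturation EC-like cells were again above CM-like cells, at 7.27 against 3.71 CPM. CM-like cells held only 36 UMIs of the full mitotic set there. In RBC-like cells the reduced set stood at 248, 118 and 115 CPM in the first 3 libraries, 9.77, 12.6 and 17.1 times above EC-like cells. At expansion 5 RBC-like cells held 87% of the UMIs of the full mitotic set in the class. At initiation 5 EC-like cells held 37.8% of the UMIs of the full mitotic set in the class, and 25.7 CPM was left without them.

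**Figure D5:**
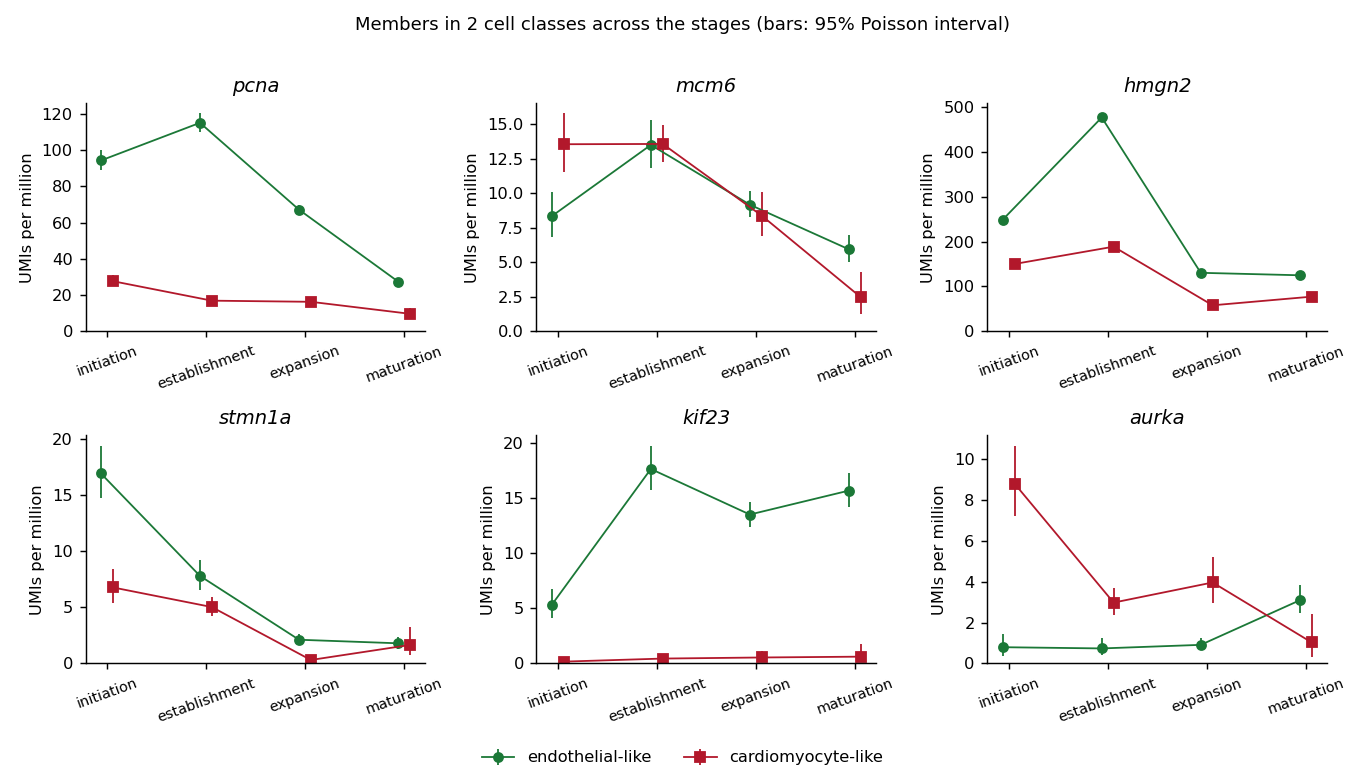
Level of pcna, mcm6, hmgn2, stmn1a, kif23 and aurka in EC-like and CM-like cells at the 4 stages, in UMIs per 1000000 UMIs, with 95% counting intervals and an axis of its own in each panel. Pcna and stmn1a are lowest in EC-like cells at maturation, kif23 is lowest in EC-like cells at initiation, and aurka changes in opposite directions in the 2 classes.

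The mesenchymal cells of the establishment library stood above those of the other stages. In the class with both epicardial and mesenchymal markers, 94, 101, 292 and 159 cells, the replication set stood at 131, 789, 83.7 and 64.8 CPM and the mitotic set at 145.5, 326, 8.32 and 17.9 CPM. In mesenchymal-like cells, 72, 179, 1013 and 947, the replication set stood at 86.2, 472, 91.1 and 61.3 CPM and the mitotic set at 22.0, 122, 15.1 and 16.2 CPM. Most of the mitotic signal came from a handful of cells. At establishment 5 cells held 85.6% of the mitotic UMIs of the epicardial and mesenchymal-like class and 83.7% of those of the mesenchymal-like class, and 53.5 and 21.6 CPM were left without them. At initiation 5 cells of the first class held 95.3%, and 7.68 CPM was left. These cells were also deep, with a median of 44469 UMIs at establishment against 12681 in the epicardial and mesenchymal-like class.

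The replication signal was spread more widely there. Without the 5 cells with the most, the replication set at establishment was 421 CPM in the epicardial and mesenchymal-like class and 275 CPM in mesenchymal-like cells, each still above every other library of that class. Replication-positive cells were 8 of 101 (7.92%, 3.48 to 15.0%) and 6 of 179 (3.35%). In the epicardial and mesenchymal-like class pcna stood at 49.0, 289, 46.9 and 35.8 CPM, mcm6 at 6.03, 53.8, 2.19 and 3.69 CPM and mcm7 at 9.80, 32.1, 7.89 and 5.80 CPM. Dut stood at 15.1, 97.8, 5.26 and 3.16 CPM, and chaf1a at 13.6, 66.2, 3.51 and 3.16 CPM. All 5 genes peaked in the same library. Hmgn2 did as well, at 332, 1113, 89.4 and 56.4 CPM. In mesenchymal-like cells pcna stood at 23.7, 219, 53.4 and 32.6 CPM.

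Epicardial-like cells without the mesenchymal markers showed less. Their replication set stood at 97.8, 153, 95.8 and 68.2 CPM and their mitotic set at 16.0, 14.3, 14.9 and 13.1 CPM, the latter with intervals that overlap in all 4 libraries. Mural-like cells had the replication set at 125, 138, 71.6 and 76.7 CPM, with chaf1a at 19.8, 4.67, 5.29 and 0 CPM. Between initiation and maturation few members could be tested in these small classes. Of 4 members tested, none was at least 2-fold higher in epicardial-like cells (10.8% of all genes tested), 2 in epicardial and mesenchymal-like cells (8.62%), namely hmgb2b and hmgn2, and 1 in mesenchymal-like cells (17.5%), hmgn2. Of 5 tested in mural-like cells 1 was higher, chaf1a (38.2%). No member was at least 2-fold lower in these 4 classes, where 6.57%, 5.68%, 8.3% and 11.4% of all genes tested were. Macrophage-like cells, 22, 53, 91 and 141, had the mitotic set at 261, 117, 120 and 77.3 CPM, above EC-like cells in each library. From establishment on, 5 cells per library held 92.4%, 81.1% and 80.5% of the mitotic UMIs of the class. Without them 10.2, 24.3 and 15.6 CPM were left, below the 26.8, 26.0 and 28.8 CPM of EC-like cells without their own top 5. Of the 307 macrophage-like cells 4 were mitosis-positive. The 13 thrombocyte-like cells at initiation had 1282 CPM of the mitotic set, with 2 positive cells.

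Genes that track the mitotic members across the data were ranked by the Pearson correlation of log2(CPM + 10) with their mean over 30 sums of a class in a library. Among 16307 genes outside the members the leading genes were dlgap5 (r = 0.960), zgc:86764 (r = 0.959), cenpk (r = 0.918), racgap1 (r = 0.915) and ncaph (r = 0.910), and the tenth was fbxo5 (r = 0.882). The 30 sums share 4 libraries, so r is a description of these data.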

How the data were processed

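The deposited values are unnormalised UMI counts of 36351 genes in every barcode, cells or not. Per the labels and the study's methods the authors used 14000 cells per library in a 10x Genomics 3' kit and counted reads against GRCz11 with the Lawson annotation v4.3.2. The submitters' processing notes name Cell Ranger 6.1.2 and the file headers 7.1.0. These versions can differ in whether intron reads are counted, which would change every level.

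From these counts, barcodes with at least 2500 UMIs and 600 genes were kept. A class needed 3 different markers and a minimum of marker UMIs per 1000000, set after seeing the data: 40000 for CMs, 3000 for ECs, 2000 for epicardial, 3000 for mesenchymal, 6000 for mural, 2000 for macrophage, 2000 for neutrophil, 500 for lymphocyte, 1000 for thrombocyte and 200000 for red blood cells. Cells over 2 or more limits were left out as mixed, except the epicardial and mesenchymal class. Of 115 marker entries 111 were found. A rebuilt class can differ from a cluster of the study.

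Intervals are exact Poisson, Clopper-Pearson or conditional binomial intervals at 95%, and a count of 0 allows 3 counts. No p-value was computed, since each stage is 1 library. Folds across genes need 50 UMIs over the sums compared and add 5 CPM. Gene positions come from no reference here, and overlaps were read by name from RefSeq (GRCz12tu). Levels are compared within a gene, as capture at the 3' end differs between genes. By rule, values in every library are given for the 3 members with the most UMIs in each role and ranges for the rest. The members and lists were chosen with earlier results of these data known. Scripts ran in Python 3.11.15 with numpy 2.4.6, scipy 1.17.1 and pandas 2.3.3 and were tested on simulated data. All columns belong to samples in the labels.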

Additional observations from a re-analysis of the deposited data

Results flagged for a closer look

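Aurka differed between 2 cell classes in its direction over the stages. The initiation to maturation ratio of aurka was 8.53 in CM-like cells and 0.257 in EC-like cells, on 105 against 5 UMIs and 10 against 79 UMIs. The difference was not tested, as each stage is 1 library.

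The barcodes that fell in no class at initiation, 374 cells, held the mitotic set at 350.3 CPM and the replication set at 471.5 CPM, against 62.0 and 57.6 CPM in free RNA of the same library. Of these cells 17 were mitosis-positive (4.55%, 2.67 to 7.18%) and 21 replication-positive (5.62%). Of the 17, 11 had at least 0.5% globin, as did 68 of the other 357 cells in no class. In the later libraries the mitosis-positive cells in no class were 1, 0 and 2.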

How the results depend on the processing

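No paired analysis was possible because each stage has 1 replicate, and for the same reason no library could be left out. Of 177 alternative values 135 stayed within the main value's interval or within 1.5 times its count, and 42 moved. None of the 117 alternative ratios turned its direction, and the levels, shares and counts have no direction to turn. The replication ratio of RBC-like to EC-like cells was not among the ratios tried. Without mitochondrial and globin UMIs in the denominator it is scaled by the same factor as the mitotic ratio, which turns its direction at initiation. Its direction under the other settings was not tested. Without mitochondrial and globin UMIs in the denominator the mitotic ratio of RBC-like to EC-like cells became 24.0 at initiation and 22.3 at establishment, the EC to CM ratio at initiation 1.44 for the mitotic and 1.58 for the replication set, and the initiation to maturation ratio of replication in EC-like cells 2.56. The last ratio was 3.13 without cells over 40% mitochondrial UMIs. Without the top 5% of cells by UMIs the RBC to EC ratio was 4.37 at initiation and 1.95 at establishment, the EC to CM replication ratio 2.29, the EC replication ratio between stages 3.77, and the mitosis-positive share of RBC-like cells 3.25% and 1.2%. The replication-positive shares of EC-like cells at initiation, EC-like cells at maturation and CM-like cells at initiation were 11.6%, 0.533% and 7.38% without thinning and 3.84%, 0.343% and 3.48% when thinned to 5000 UMIs. With 1 more gene needed they were 0.736% in EC-like and 0.492% in CM-like cells at initiation, and with 1 fewer 5.52%, 0.736% and 3.15%. With at least 5000 UMIs and 1000 genes the mitotic level of RBC-like cells at initiation was 425 CPM, the RBC to EC ratio 10.3 and 18.1, and the replication ratio between stages 3.04 in EC-like and 2.41 in CM-like cells. With at least 1500 UMIs and 400 genes that level was 270.6 CPM, the RBC to EC ratio at establishment 3.95 and the CM-like replication ratio 4.24. Members at least 2-fold higher at initiation became 13 in EC-like and 9 in CM-like cells with 1 CPM added, where 15.9% and 45.5% of all genes were, and 13 and 10 at 1.5-fold, where 21.7% and 49.2% were. Chosen after seeing the data, a lower red blood cell gate of 20000, no minimum of genes, and leaving out other cells with at least 5000 globin UMIs per 1000000 changed no value beyond its interval. The cause of each move was not tested. At maturation the values rest on 20 RBC-like and 5 mitosis-positive cells.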

Other observations

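Among the rarer blood cells, 1 of 85 lymphocyte-like cells was mitosis-positive and none of 42 neutrophil-like cells was. At maturation, where 36 of the latter lay, a count of 0 allows a share of up to 8.33%. No hypothesis was tested.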
